A study of Mus musculus with 7 samples.

Results

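The regions described here are stretches of the mouse genome with a called peak of the vitamin D receptor (VDR) in every hormone-treated library and in no vehicle library. They lie inside a protein-coding gene away from its start. A missing peak does not show that the receptor was absent. The VDR was precipitated with its DNA by the antibody sc-1008 from epithelial cells of the duodenum and jejunum, which EDTA had released, and the DNA was sequenced (ChIP-seq). The mice were wild type, 8 weeks old and on a chow diet, and their tissue was collected 1 h after a dose of 10 ng/g of 1,25(OH)2D3, the active hormone (3 libraries), or after vehicle (3 libraries). Peaks of the 6 libraries on chromosomes 1 to 19 and X were merged wherever they overlapped by at least 1 bp. A merged region was kept if it held a peak of all 3 1,25(OH)2D3 libraries and of no vehicle library, and if its centre lay inside a protein-coding gene and more than 1 kb from every annotated protein-coding transcription start. The regions were thus chosen by the presence and absence of peaks and by gene annotation, which left 2028 of 86995.

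The VDR is a nuclear receptor. With hormone bound, it pairs with a retinoid X receptor and recognises a DR3, a direct repeat of a 6-base half-site with a spacer of 3 bases, from which it recruits coactivators and changes transcription of nearby genes. In the small intestine it is known for driving the uptake of dietary calcium. Such elements occur near gene starts, between genes and within introns, and an element inside a gene need not act on that gene.

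A few regions with a DR3 are shown first, since the DR3 was the pair of half-sites most raised over nearby windows by ratio, although most of the regions lack one. A half-site is A or G, then G, then G or T, then T, then C or G, then A, and both strands were searched within 100 bp of each region's centre. Capitals mark the 2 half-sites of the closest DR3, with 20 bases on either side, on the strand of the DR3, from build mm9. The first group is of the 10 regions that stood highest in the authors' peak lists among those with a DR3 of 0 mismatches, and shows how far the letters vary within the same element.
Tspan15, first intron (chr10:61687172-61687226, minus strand): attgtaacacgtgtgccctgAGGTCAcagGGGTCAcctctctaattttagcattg
Sh3bgr, intron (chr16:96446389-96446443, minus strand): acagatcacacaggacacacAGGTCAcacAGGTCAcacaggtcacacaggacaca
Tnip3, intron (chr6:65562077-65562131, plus strand): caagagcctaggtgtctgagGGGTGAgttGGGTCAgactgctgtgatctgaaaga
Gm239, first intron (chr10:116310785-116310839, plus strand): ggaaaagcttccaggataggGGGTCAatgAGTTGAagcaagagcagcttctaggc
Prdm16, intron (chr4:153871952-153872006, plus strand): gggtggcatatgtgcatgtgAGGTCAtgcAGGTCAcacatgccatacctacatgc
Mbnl2, intron (chr14:120740588-120740642, minus strand): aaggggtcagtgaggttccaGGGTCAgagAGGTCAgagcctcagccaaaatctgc
Dvl1, first intron (chr4:155222711-155222765, minus strand): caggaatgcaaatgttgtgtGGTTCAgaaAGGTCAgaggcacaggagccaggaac
Ak3, first intron (chr19:29115885-29115939, plus strand): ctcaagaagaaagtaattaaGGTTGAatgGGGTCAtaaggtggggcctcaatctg
Cth, intron (chr3:157572722-157572776, minus strand): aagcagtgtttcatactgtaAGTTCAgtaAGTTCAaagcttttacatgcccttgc
Panx1, intron (chr9:14822256-14822310, minus strand): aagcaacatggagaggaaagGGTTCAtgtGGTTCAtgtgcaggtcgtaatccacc

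The next set is of regions inside genes of the vitamin D pathway, of crypt cells and cell junctions, and of metal, bile acid and xenobiotic handling. Each holds a DR3 with 1 mismatch, apart from Magi1, which has 0. Where a substitution is given, the base of the element stands first, its position is counted from 1 at the 5′ end of the DR3, and the base in the genome stands last.
Ncoa2, first intron (chr1:13280095-13280149, plus strand): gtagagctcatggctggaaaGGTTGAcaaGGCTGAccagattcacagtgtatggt
Slc30a5, first intron (chr13:101600567-101600621, minus strand, T13A): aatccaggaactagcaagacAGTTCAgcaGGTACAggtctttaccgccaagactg
Nr1i3, coding exon 5 of 9 (chr1:173146960-173147014, plus strand): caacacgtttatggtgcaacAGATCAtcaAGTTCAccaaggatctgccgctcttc
Cyp3a11, coding exon 12 of 13 (chr5:146670426-146670480, minus strand, T13A): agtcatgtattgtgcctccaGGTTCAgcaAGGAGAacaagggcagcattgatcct
Cyp3a25, intron (chr5:146810670-146810724, minus strand, T13C): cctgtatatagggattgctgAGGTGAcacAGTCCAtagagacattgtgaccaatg
Myb, first intron (chr10:20879007-20879061, plus strand, A15C): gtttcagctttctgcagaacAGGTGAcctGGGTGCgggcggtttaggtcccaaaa
Magi1, first intron (chr6:94166912-94166966, minus strand): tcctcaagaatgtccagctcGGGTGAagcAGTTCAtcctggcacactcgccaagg

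The 2 regions placed highest in the lists of all 2028 are shown with the whole window of 100 bases on either side of the centre, because neither holds a DR3 with fewer than 2 mismatches. Capitals mark the closest match.
Mob1b, first intron (chr5:89153318-89153518, minus strand): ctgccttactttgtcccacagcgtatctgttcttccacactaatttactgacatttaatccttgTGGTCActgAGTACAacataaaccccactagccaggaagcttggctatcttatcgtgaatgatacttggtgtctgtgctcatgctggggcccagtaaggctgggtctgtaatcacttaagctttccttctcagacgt
Mgat5, first intron (chr1:129103749-129103949, plus strand): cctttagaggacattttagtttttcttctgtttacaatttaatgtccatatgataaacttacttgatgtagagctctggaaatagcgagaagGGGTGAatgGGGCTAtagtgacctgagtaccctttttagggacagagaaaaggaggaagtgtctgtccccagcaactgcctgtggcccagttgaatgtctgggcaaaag

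The libraries held between 15991198 and 68560701 tags, and replicate 3 was the deepest of each group. On these chromosomes the lists held 8755 to 48399 peaks with vehicle and 25509 to 41703 with hormone. Whether a library stands for its own mouse is not given in the labels, and p-values then measure only the spread of the libraries, which may be technical. The only input library in the labels carries the hormone dose. A receptor that sits on a site in few cells and one that sits weakly on it in many cannot be told apart in such bulk material.

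Of the 38871 merged regions inside genes and over 1 kb from every start, 5.22% met the presence rule, beside 5.39% of all merged regions. The opposite pattern, all 3 vehicle and no 1,25(OH)2D3 library, was met by 16 regions inside genes (0.0412%). List length limits each pattern unequally, so the shares are not like measures. The shortest vehicle list (replicate 1) had 3856 peaks inside genes and the shortest hormone list (replicate 1) had 11287. With each list cut to its first 8756 peaks, the hormone-only regions inside genes numbered 280. Presence chose the regions, so all these counts are a description. Just outside the rule, 2721 regions inside genes had a peak in 2 of the 3 1,25(OH)2D3 libraries and no vehicle library. Another 2158 had all 3 1,25(OH)2D3 libraries and 1 vehicle library, which was vehicle replicate 3 for 1242 of them, replicate 2 for 683 and replicate 1 for 233. Each library adds a condition to the rule, so leaving one out raises the count almost by construction. From 2028 it rose to 2712 on leaving out vehicle replicate 2 and to 3268 on leaving out vehicle replicate 3. It rose to 3624 on leaving out hormone replicate 1, so the size of the rise differed between libraries.

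For reference, 3 other classes recur below. Hormone-only regions between genes numbered 1853 and hormone-only regions within 1 kb of a start numbered 806. Regions inside genes with a peak in all 6 libraries numbered 1906.

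The hormone-only regions inside genes spanned 289 to 717 bp (median 366 bp), which the fixed peak widths and the merging largely set, and the centres of the 3 peaks in a region lay a median of 80 bp apart at the widest. The nearest vehicle peak was a median of 7.40 kb away, and 149 of the regions (7.35%) had one centred within 1 kb. At Mob1b the nearest vehicle peak was 9.95 kb away, and at Smyd1 it was 0.649 kb away.

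The files give no tag count per peak, and the position of a peak in its list is the only other measure, expressed as a percentile in which 100 is the first peak. What the order follows is not given in the sources used here, so it is not a measured occupancy. The hormone-only regions inside genes stood in the middle of the lists, with medians of 43.9, 42.5 and 57.1 in 1,25(OH)2D3 replicates 1, 2 and 3. Hormone-only regions between genes were placed alike, at 43.5, 41.4 and 55.8, whereas those near starts stood higher, at 63.4, 64.8 and 74.1. Regions of all 6 libraries inside genes were near the top of each list, at 86.4, 88.2 and 91.4.

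**Figure D1:**
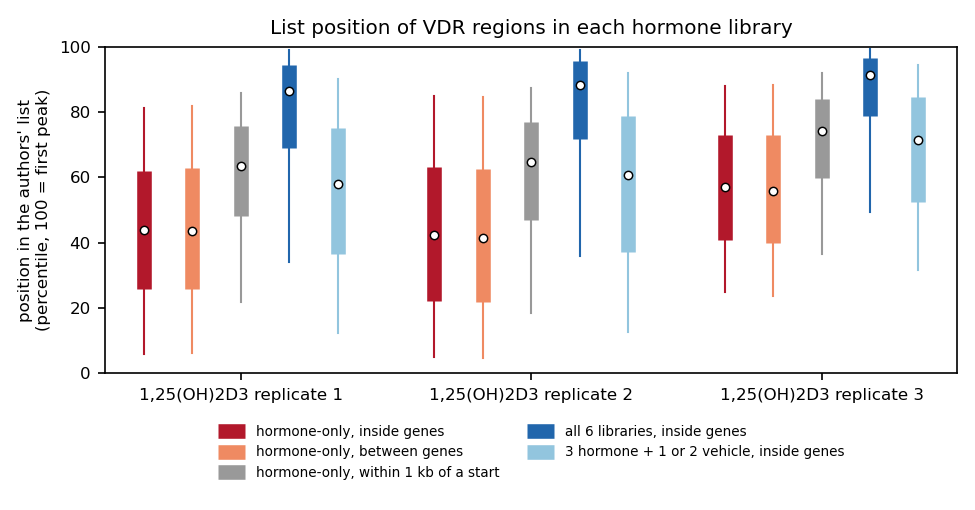
Position in the authors' list (percentile, 100 for the first peak) of the regions of 5 classes in each 1,25(OH)2D3 library; points are medians, thick bars span the middle 50% of regions and thin lines the 5th to 95th percentile. Hormone-only regions inside genes have medians of 43.9, 42.5 and 57.1, close to those between genes and below the other 3 classes in every library.

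The highest position belonged to a region in the first intron of Mob1b (ENSMUSG00000006262.9), an adaptor of the kinases of the Hippo pathway, 3.54 kb from the gene's start. It stood at percentiles of 95.8, 98.2 and 98.9 in replicates 1, 2 and 3. Mgat5 (ENSMUSG00000036155.7), which adds a branch to N-linked glycans, followed with 96.0, 97.7 and 98.6 in its first intron, 2.29 kb from the start. Trpm8 (ENSMUSG00000036251.9), a cation channel opened by cold and menthol, held a region at 94.3, 93.5 and 96.6 (chr1:90180795-90181092), the only one of these first 3 with a DR3 of 1 mismatch. Its centre falls within the span of the gene but in no exon or intron of a protein-coding transcript. These 3 regions stood near the top of every hormone list, with little spread between lists.

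The other 7 of the first 10 had mean positions between 92.6 and 94.0. An intron of Bre, a subunit of a BRCA1-containing complex, held one at 94.0 ± 3.09 (SD, n = 3 lists, as below; chr5:32333881-32334230). Tmbim1 held one at 93.6 ± 2.21 (chr1:74345171-74345567), in the long first exon, a 5′ UTR, of 1 transcript model and inside the overlapping gene Pnkd. In Smyd1, a histone methyltransferase of muscle, the region lay in an intron (chr6:71186494-71186812; 93.3 ± 1.75), as did those of Gng7, a G protein gamma subunit (chr10:80445255-80445600; 93.2 ± 1.73), and Nlrc4, an inflammasome sensor (chr17:74837118-74837462; 93.2 ± 1.02). Ppp1r1b, which encodes an inhibitor of protein phosphatase 1, had one in an intron (chr11:98215073-98215430; 93.1 ± 0.839), and Dopey2 in its second intron (chr16:93733272-93733578; 92.6 ± 2.35). Of these 10 regions only that of Trpm8 held a DR3 with at most 1 mismatch.

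A DR3 with at most 1 mismatch was found in 441 of the 2028 regions, 21.7% (95% Wilson interval 20.005 to 23.6). In windows of the same length 5 kb to the right of each region the share was 3.75%, a ratio of 5.80, and over all merged regions it was 10.9%. With 0 mismatches the shares were 3.55% (72 regions) and 0.148%. Most regions with a DR3 had 1 (390 regions), while 43 had 2 and 8 had 3 or more. Intervals here and below cover counting error only, are not adjusted for the number of comparisons, and carry no p because regions are not replicates of a treatment.

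Hormone-only regions inside genes had a DR3 less often than regions of all 6 libraries inside genes, where the share was 29.2%. The difference was -7.43 percentage points (95% Newcombe interval -10.1 to -4.70). Against hormone-only regions between genes, at 22.0%, it was -0.273 points (-2.88 to 2.33), and no difference was seen within that interval. Near starts 14.3% of hormone-only regions had one, 7.48 points fewer than inside genes (4.36 to 10.4). Among regions inside genes with a peak in all 3 1,25(OH)2D3 libraries, the share was 21.7% with 0 vehicle libraries, 20.02% with 1, 19.6% with 2 and 29.2% with all 3. With no vehicle library, it was 12.7% for regions of 1 1,25(OH)2D3 library, 16.9% for 2 and 21.7% for 3.

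The elements lay toward the middle of the regions. The closest DR3 was a median of 31 bp from the centre (middle 50%, 16 to 53 bp), and 33.1% were within 20 bp (28.9 to 37.6), compared with 21.1% (13.4 to 31.5) of the 76 found in the windows 5 kb away. In regions of all 6 libraries inside genes the median was 26 bp. The 3 peak centres of a region were spread over a median of 70 bp with a DR3 and 83 bp without one. The DR3 was on the strand of the host gene in 52.2% of the regions that had one (47.5 to 56.8).

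**Figure D2:**
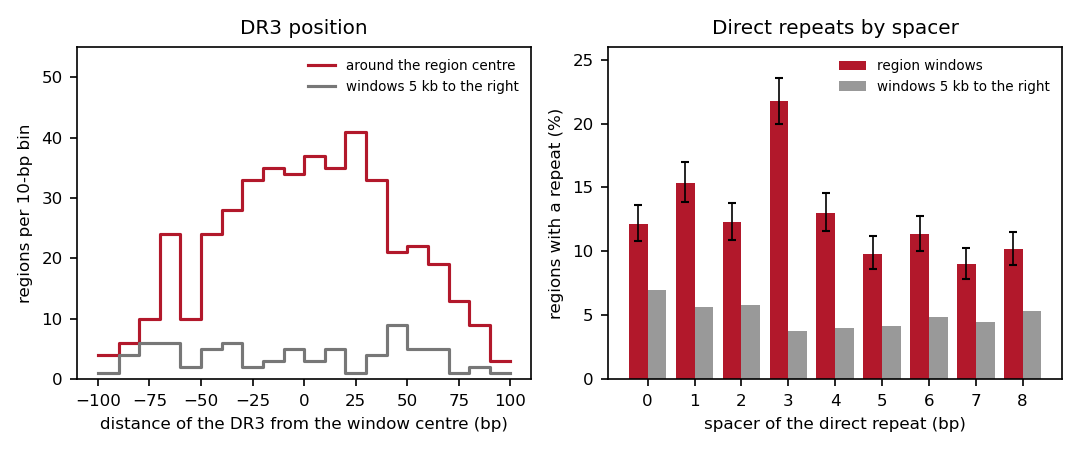
Left, number of hormone-only regions inside genes whose closest DR3 (at most 1 mismatch) falls in each 10-bp bin of distance from the window centre, for the regions and for windows 5 kb to the right; right, percent of the 2028 regions (red, with 95% Wilson intervals) and of the 5 kb windows (grey) with a direct repeat of each spacer. The region counts reach 41 per bin near the centre while the 5 kb windows hold at most 9, and the spacer of 3 bp stands above all others at 21.7%.

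Of the 27 ways to pair the half-sites that were searched (direct, inverted and everted, each with spacers of 0 to 8 bp, at most 1 mismatch), the direct repeat with a spacer of 3 was the most frequent and the most raised over the windows 5 kb away. A spacer of 1 (DR1), the arrangement bound by HNF4 and by RXR with PPAR, came next among direct repeats at 15.3%, against 5.67% in the windows. A spacer of 4 (DR4), used by thyroid hormone, liver X and xenobiotic receptors, was found in 13.02% against 3.99%. Other direct repeats were in 8.97% to 12.3% of regions. An inverted repeat with a spacer of 6 was in 5.67% of regions against 1.18%, a ratio of 4.79, and in 3.34% of those without a DR3. A single strict half-site, AGGTCA on either strand, was in 35.2% of regions and 12.4% of windows. It was more frequent with a DR3 than without (44.7% against 32.5%), and AGGTCA is itself 1 form of the half-site.

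Within the element, positions are counted from 1 at its 5′ end, so that the spacer is positions 7 to 9 and the second half-site positions 10 to 15. In hormone-only regions inside genes, C stood at position 14 in 71.7% of elements and at position 5 in 68.5%, compared with 40.8% and 44.7% in the few elements of the 5 kb windows. Position 9, the last of the spacer, was G in 42.9% and T in 11.3%, compared with 27.6% and 34.2%. Elements in regions of all 6 libraries went further in the same directions, with G at position 9 in 53.1% (difference -10.2 points, -16.3 to -3.96). Position 12 was T in 49.2% of the hormone-only elements and in 64.7% of those of all 6 libraries (difference -15.5 points, -21.6 to -9.37). These positions were chosen after their values were seen: of 92 base and position pairs compared between these 2 classes, 12 had an interval without 0, and 5 of 92 did so between hormone-only regions inside and between genes. Where an element had 1 mismatch, it fell most often at position 13 (26.0% of 369 elements), then 4 (15.2%) and 15 (13.6%). Position 13 also came first in the 5 kb windows (17.8% of 73 elements) and in regions of all 6 libraries inside genes (22.1% of 438). The same held for hormone-only regions between genes (19.3% of 357).

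The presence of a DR3 went against list position. The regions were put in order of mean position and cut into 4 groups of 507. In the highest group 15.2% had a DR3 (12.3 to 18.6), and the next groups had 17.0%, 21.3% and, at the bottom, 33.5% (29.6 to 37.8). The lowest group was above the highest in each 1,25(OH)2D3 list taken alone, at 32.3% against 15.8% in replicate 1, 32.9% against 14.4% in replicate 2 and 31.8% against 17.6% in replicate 3. The median position was 30.5 for regions with a DR3 of 0 mismatches, 38.3 with 1, 49.2 with 2 and 50.4 with 3 or more. Regions of all 6 libraries inside genes had the reverse order, 41.9% in the highest group and 23.7% in the lowest, and hormone-only regions between genes the same order as those inside, 15.5% to 30.2%. Median GC content in the searched window was 48.8% in the highest group and 46.8% in the lowest, and its part in the trend was not tested.

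**Figure D3:**
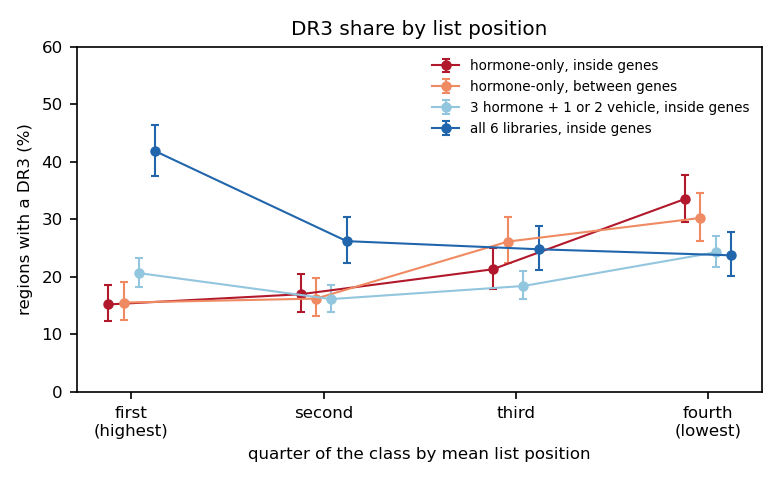
Percent of regions with a DR3 (at most 1 mismatch) in 4 equal groups of a class, ordered by mean position over the 3 1,25(OH)2D3 lists, with 95% Wilson intervals. Hormone-only regions inside genes rise from 15.2% in the highest group to 33.5% in the lowest, and regions of all 6 libraries fall from 41.9% to 23.7%.

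The 10 regions with a DR3 of 0 mismatches whose sequences are given above were chosen as the highest of 72. The median position of the 72 was 30.5, so the 10 show only that some such elements stood high in the lists. Tspan15, a tetraspanin, led the 10 with positions of 87.4, 84.3 and 91.8 in replicates 1, 2 and 3. Tnip3, which encodes a partner of the NF-kB inhibitor A20, had 79.9, 89.2 and 92.4. Prdm16, a transcription factor of brown fat, had 91.9, 80.9 and 87.2, in an intron 139 kb from the gene's start. All 3 regions were high in each list, and replicate 1 gave the lowest position for Tnip3 but the highest for Prdm16.
Lower in this set, Dvl1, which relays Wnt signals from the receptor, had 59.9, 73.7 and 80.0 at 1.25 kb from its start. Ak3, a mitochondrial nucleotide kinase, had 77.0, 58.4 and 74.1. Cth, which makes cysteine from cystathionine, had 63.5, 59.5 and 70.1, and Panx1, a membrane channel that releases ATP, had 63.3, 51.6 and 75.6. These 4 regions stood lower than the leading ones of the set.

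Motifs of intestinal transcription factors were also present, 13 motifs having been searched on both strands within 100 bp of the centre. The HNF4 motif CAAAGTCCA was in 2.07% of the regions and 0.444% of the windows 5 kb away, and the CDX motif TTTATGG in 5.03% and 2.42%. The GATA motif AGATAA was in 17.7% and 11.8%, and AP-1 (TGANTCA) in 11.9% and 7.25%. Over all merged regions these 4 shares were 1.57%, 3.99%, 18.4% and 10.9%, so the GATA share was not above that of the merged set. That set holds many peaks of a single library. Of the 38871 merged regions inside genes, 15385 had a peak in 1 vehicle library only and 8977 in 1 hormone library only.

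GATA and TCF motifs were less frequent in hormone-only regions than in regions of all 6 libraries inside genes. For GATA the shares were 17.7% and 25.7% (difference -8.00 points, -10.6 to -5.43), and for the TCF motif ATCAAAG, the site of the Wnt effectors, 4.19% and 7.08% (-2.89 points, -4.36 to -1.45). Against hormone-only regions between genes, GATA was lower by -2.75 points (-5.23 to -0.276), HNF4 by -1.33 points (-2.40 to -0.304) and the FOX motif TGTTTAC by -1.48 points (-2.73 to -0.271). For the FOX motif the share of 3.11% was at the level of the 5 kb windows, 3.16%. KLF/SP (GGGCGGG) was in 3.16% of regions, against 1.73% of the windows and 2.85% of all merged regions. ETS (CCGGAAG) was in 1.38%, against 0.888% and 1.53%. The E-box CACGTG was in 3.55%, against 2.76% and 3.16%. The differences from the windows had intervals of -0.171 to 1.18 points for ETS and -0.294 to 1.88 points for the E-box. The CREB motif TGACGTCA was in 3 regions, 0.148%, against 0.542% and 0.254%. Median GC content was 47.8%, the same as between genes, compared with 45.8% in the 5 kb windows and 58.7% in hormone-only regions near starts.

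Within the genes, most centres were intronic. First introns, meaning an intron that comes first in at least 1 protein-coding transcript, held 835 regions (41.2%, 39.1 to 43.3), and first introns make up 30.3% of the gene-body bases that the rule allows. Later introns held 1056 regions (52.1%) and 62.7% of the bases. Coding exons held 65 (3.21%), close to their 3.05% of bases, 3′ UTRs 49 (2.42%), 5′ UTRs 5 and other parts 18. Regions of all 6 libraries had nearly the same spread, with 40.9% in first introns (difference 0.303 points, -2.77 to 3.37). Over all merged regions inside genes the shares were 34.1% in first introns, 59.2% in later introns and 2.62% in coding exons. For the hormone-only regions the excess over bases was smaller away from starts. Beyond 5 kb from every start, first introns held 34.3% of them and 26.9% of bases.

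**Figure D4:**
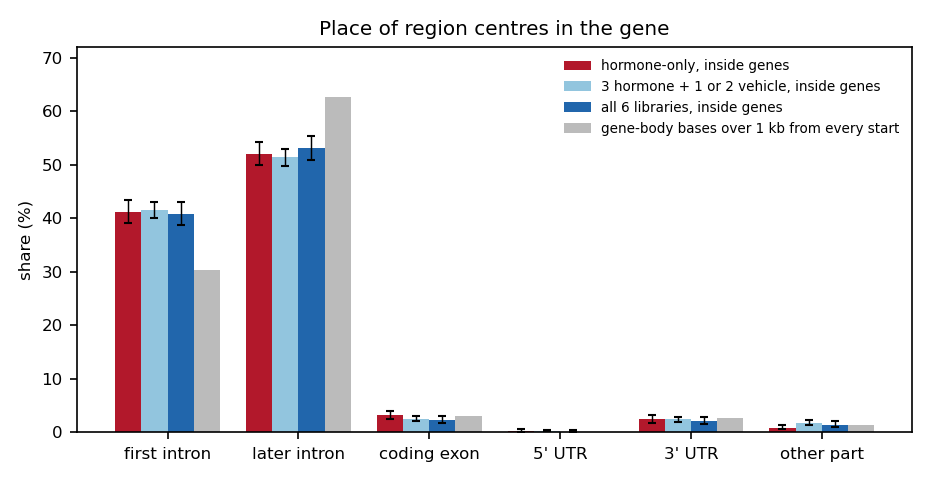
Percent of region centres in each part of the gene for hormone-only regions, regions of all 3 1,25(OH)2D3 and 1 or 2 vehicle libraries, and regions of all 6 libraries, with 95% Wilson intervals, beside the percent of gene-body bases over 1 kb from every start (grey). First introns hold 41.2% of the hormone-only regions and 30.3% of the bases, and 40.9% of the regions of all 6 libraries.

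The regions were spread along the genes, a median of 44.4% of the way from start to end and 15.6 kb from the nearest protein-coding start. The 20% of the gene's length nearest its start held 22.9% of them and the last 20% held 17.3%. For 372 regions (18.3%, 16.7 to 20.1) the nearest protein-coding start belonged to a gene other than a host gene, and the share was 18.2% for regions of all 6 libraries. Just inside the limit of 1 kb were regions in 2310014H01Rik and Zmynd8 (both 1.001 kb), Calcoco2 (1.006 kb), Dolpp1 (1.007 kb) and 2010109K11Rik (1.013 kb), and just outside it were regions in Yap1, the effector of the Hippo pathway (0.998 kb), Ppp6r1 (0.995 kb), Usp3 (0.990 kb), S100a10 (0.989 kb) and Tlk1 (0.987 kb).

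The regions in coding exons that stood highest in the lists were in Eif4g3, a scaffold of translation initiation, Irak2, a kinase of Toll-like receptor signalling, and Ryk, a Wnt receptor. Their mean positions were 82.2 ± 5.36 in exon 26 of 34 (chr4:137740484-137740805), 80.3 ± 3.01 in exon 5 of 13 (chr6:113622737-113623098) and 78.9 ± 8.91 in exon 2 of 15 (chr9:102764160-102764468). Dcun1d4 (chr5:73948296-73948706) and Ifi30, a lysosomal thiol reductase (chr8:73288713-73289100), followed at 72.3 ± 9.13 and 71.5 ± 7.42. Of the 5, the regions of Irak2 and Ifi30 had a DR3 with 1 mismatch.

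The 2028 regions lay in 1618 of 22350 protein-coding genes (7.24%). Of these, 1301 genes held 1 region, 236 held 2 and 81 held 3 or more. Host genes were long, with a median of 67.0 kb against 15.4 kb over all genes, and the share of genes with a region was 0.112% in the shortest 20% of genes and 20.8% in the longest. For that reason each gene list below is set beside genes of like length. This is the share of all genes with a region in the same 5 classes of length. The longest class runs from 54.7 to 4435 kb, so length is held only roughly among long genes. A region of all 6 libraries was also present inside 461 of the host genes (28.5%), compared with 6.76% of all genes, and 41.3% of the hormone-only regions had one within 50 kb, compared with 42.6% of those between genes (difference -1.31 points, -4.42 to 1.79). A hormone-only region within 1 kb of a start was found at 7.73% of host genes and 3.84% of all genes. Length was not held fixed in these shares of genes.

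Among the genes with the most regions, Shroom3, which drives apical constriction of epithelial cells through actomyosin, held 7 in 282 kb, at mean positions from 16.8 to 82.6, and 1 of the 7 had a DR3. Rap1gap2, which switches off the GTPase Rap1, also held 7, from 16.3 to 62.3, and none had a DR3. Prkag2, a regulatory subunit of the energy sensor AMPK, held 6, of which 2 had a DR3. Mecom, a zinc-finger transcription factor, Prkca, the alpha isoform of protein kinase C, Tns3, a tensin of focal adhesions, and Pard3, a polarity protein of tight junctions, held 5 each.
In Tns3 all 5 regions had a DR3, 2 of them with 0 mismatches, against 21.7% of all these regions. They lay in introns between 82.1 and 203 kb from the start, and their mean positions ran from 13.1 to 87.1. Mecom and Prkca had no DR3 in any of their 5 regions, although their highest stood at 92.2 ± 4.39 (chr3:30062514-30062858) and 90.8 ± 3.73 (chr11:108173261-108173600). A large number of regions in a gene therefore came both with and without the element.
By the rule the first places went to Gm20388 with 23 regions, Fgfr2, a fibroblast growth factor receptor, with 9, and Arfip1 with 6, whose models span 4435, 3009 and 1391 kb across many other genes. Without transcripts that contain an intron over 500 kb, the counts of these 3 were 0, 1 and 0, and the total was 2005 regions in 1613 genes.

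**Figure D5:**
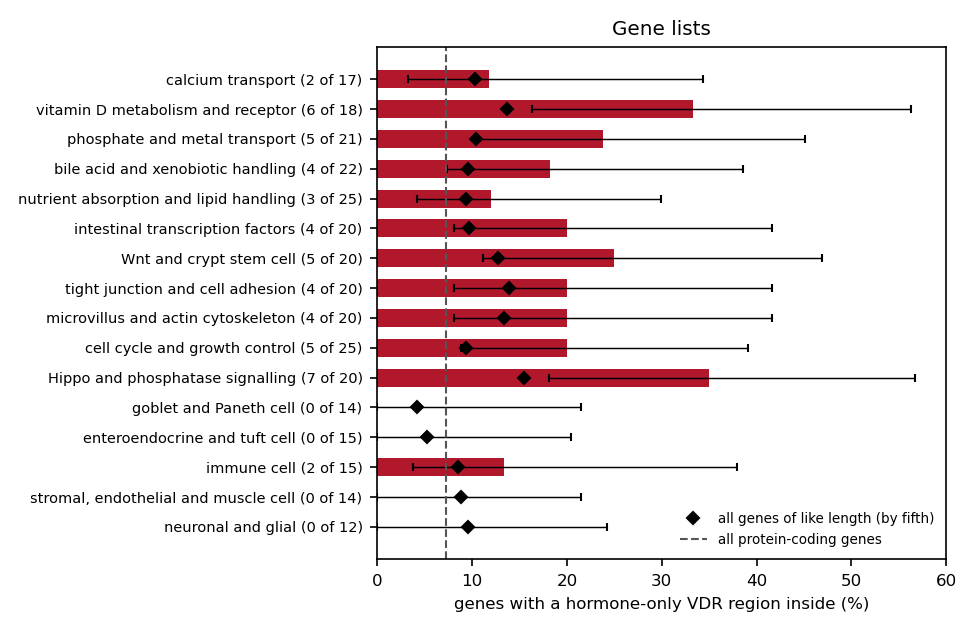
Percent of the genes of each list with at least 1 hormone-only VDR region inside, with 95% Wilson intervals (counts in brackets), beside all genes of like length (diamonds) and all protein-coding genes (dashed line, 7.24%). Intervals are not adjusted for the 16 lists. Those of the vitamin D list (6 of 18) and the phosphate and metal list (5 of 21) lie above their diamonds. The latter does so narrowly, with a lower bound of 10.6% against 10.5%. The interval of the Hippo and phosphatase list (7 of 20) does too, but that list was drawn up after these data had named some of its genes. Of the 5 lists of other cell types, 4 are at 0.

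Gene lists are described by counts, since their members were chosen with earlier results known. In all, 298 of 299 symbols were found and 51 of the 298 genes held a region, beside 7.24% of all protein-coding genes, with length not held fixed. The median number of regions per gene was 0 in every list, as over all genes.

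Of 18 genes of vitamin D metabolism and signalling, 6 held a hormone-only region, 33.3% against 13.7% of genes of like length. Among them were the receptor and its partners. Rxra, which encodes the retinoid X receptor that pairs with the VDR, held 2: one in the first intron 10.0 kb from the start, at 66.1, 82.2 and 83.2 in replicates 1, 2 and 3, and one in the last intron at 50.01, 51.2 and 70.1. Ncoa3, a coactivator of nuclear receptors, held 2 in its first intron, at means of 52.3 ± 18.3 and 60.3 ± 7.13. Those of its relatives Ncoa1 and Ncoa2 stood at 30.5 ± 6.48 and 57.8 ± 13.3. Vdr itself held one in intron 3 of 9 at 74.0, 78.0 and 80.5 (chr15:97711086-97711450), 0.751 kb from the nearest vehicle peak. Of the regions named here, that of Ncoa2 had a DR3 with 1 mismatch. Cyp24a1, Cyp27b1, Cyp27a1 and Cyp2r1, the enzymes that inactivate or make the hormone, held none inside the gene.

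Calcium transport genes were not above the background, with 2 of 17 (11.8% against 10.3% of genes of like length). Both encode calcium pumps of the plasma membrane. Atp2b1, the basolateral pump of enterocytes, held one 59.7 kb into the gene at 26.5, 30.1 and 49.2 (chr10:98437309-98437681), and Atp2b2 one in its first intron at 48.8, 31.3 and 53.4 (chr6:113973555-113973999). The latter was 276 kb from any vehicle peak, the farthest of all 2028. Trpv6, the apical channel, and S100g, which encodes calbindin-D9k, held none inside the gene. A hormone-only region on chromosome X lay in an intron of Ctps2, a CTP synthase gene that holds S100g on its other strand, at 76.3, 85.5 and 89.5 (chrX:159407957-159408317). It was chosen after its values were seen.

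Metal and phosphate transport had 5 of 21 (23.8% against 10.5%). The regions were single and in introns of Slc30a5, a zinc transporter of the secretory pathway (44.6, 56.5 and 72.8), Cnnm4, which exports magnesium (32.4, 48.0 and 66.3), Slc39a8, an importer of zinc and manganese (38.9, 25.1 and 42.7), and Atp7a, the copper pump of enterocytes (21.7, 15.8 and 23.4). Slc40a1, the iron exporter ferroportin, held the other. Slc30a5 and Atp7a had a DR3 with 1 mismatch. In each of these genes replicate 3 gave the highest position, as it did for the class as a whole.

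Bile acid and xenobiotic handling had 4 of 22 (18.2% against 9.58%). Nr1i3, the xenobiotic receptor CAR, had its region over coding exon 5 at 62.2, 68.3 and 81.7 (chr1:173146757-173147084). Cyp3a11 and Cyp3a25, cytochromes that oxidise drugs and bile acids, stood lower, at 26.2 ± 5.16 and 35.5 ± 2.88, and Abcc4, an efflux pump, at 58.1 ± 8.44. All but Abcc4 had a DR3 with 1 mismatch. The Cyp3a genes belong to the same family, and whether reads were split among them was not tested.

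Nutrient absorption had 3 of 25 (12% against 9.31%), but 2 of these stood high in the lists. Slc5a1, which encodes the apical glucose transporter SGLT1, held one in its first intron at 90.3, 89.6 and 93.7 (chr5:33450873-33451197), 4.17 kb from the start. Anpep, a peptidase of the brush border, had 85.6, 89.1 and 85.3 in intron 10 (chr7:86982181-86982505). Slc27a4, a fatty acid transporter, had 28.5, 29.5 and 34.6. A region of all 6 libraries was inside 11 of the 25 genes, beside 6.76% of all genes of any length, and inside 11 of 20 tight junction and 8 of 20 microvillus genes.

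Transcription factors of the intestine had 4 of 20 (20% against 9.70%). Ppara, the receptor that switches on fatty acid oxidation, held 3 regions within about 5 kb of each other in its second intron, at 55.8 ± 3.64, 55.1 ± 7.67 and 49.9 ± 5.69. None of the 3 had a DR3 with at most 1 mismatch. Gata5 held one at 65.3 ± 5.90.

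In the list of Wnt and crypt stem cell genes, 5 of 20 held a region (25.0% against 12.8%). Tcf7l2, the Wnt effector that maintains crypts, held 4 in introns 3 to 5, at means of 71.6 ± 8.67, 61.0 ± 7.005, 78.9 ± 3.30 and 80.1 ± 6.996, none with a DR3. Lrig1, a brake on growth factor receptors in stem cells, and Lrp5, a Wnt coreceptor, held 2 each, with means from 43.4 to 55.7. Myb, a factor of proliferating crypt cells, held one 1.77 kb from its start at 54.1, 61.6 and 75.1, and Prom1 one in intron 26 of 27. Lgr5, Olfm4 and Ascl2, which mark crypt base stem cells, held none.

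Tight junction and adhesion genes had 4 of 20 (20% against 13.9%), together with 11 regions. Pard3 held 5, at means from 15.3 to 58.9, and Magi1, a scaffold of the junction, held 4, from 18.8 to 80.1. Cdh1, which encodes E-cadherin, had one at 60.5, 55.4 and 57.0 and Tjp1, which encodes ZO-1, one at 62.0, 52.4 and 52.7. Genes of the microvillus and actin cytoskeleton also had 4 of 20 (20% against 13.4%). Myo5b, the motor of apical vesicle traffic, held 4 in its first intron, from 37.6 to 68.6, and Eps8, Myo7b and Pls1 held 1 each.

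The list of Hippo and phosphatase signalling had 7 of 20 (35.0% against 15.5%). It was drawn up because earlier results of these data named Mob1b, Mgat5 and Ptprj, so it is not independent of them. Ptprj, Ptprg and Mgat5 held 2 each, and Ptprf, Ptprk, Tead1 and Mob1b 1 each. A region in intron 22 of 24 of Ptprj was the lowest of all 2028, at 0.623, 5.74 and 1.85. Cell cycle and growth control had 5 of 25 (20% against 9.39%), among them 2 in Smad7, an inhibitor of TGF-beta signalling, at 59.5 ± 17.8 and 78.3 ± 6.49. Erbb2 and Insr, receptor tyrosine kinases, and Mapk14, the kinase p38 alpha, held one each, between 43.4 and 52.3.

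For genes that mark other cells, most lists held none, although the Wilson interval of each list included the share of genes of like length. Peaks do not measure expression. The 14 goblet and Paneth, 15 enteroendocrine and tuft, 14 stromal, endothelial and muscle, and 12 neuronal and glial genes held 0, against 4.22%, 5.204%, 8.80% and 9.59% of genes of like length, and the Wilson intervals reach up to 24.2%. Of 15 immune genes 2 held a region, 13.3% against 8.47%. Csf1r, the receptor of macrophage growth factor, held 2, at 37.4 ± 5.35 and 39.9 ± 14.0, and Emr1, which encodes the macrophage antigen F4/80, held 1 at 44.7 ± 14.5. The 5 enterocyte markers Fabp2, Alpi, Sis, Apoa4 and Vil1 held none, beside 7.24% of all genes. A region of all 6 libraries was inside 3 of them, beside 6.76% of all genes. Length was not held fixed for these markers.

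By chromosome, the density ran from 0.621 regions per Mb of gene body on X to 2.96 on chromosome 11.

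Values per library are given last. The share of a library's peaks that lay inside genes and over 1 kb from starts was 44.0%, 45.2% and 43.9% with vehicle and 44.2%, 44.4% and 45.2% with 1,25(OH)2D3, and the groups overlapped. The means were 44.4% ± 0.701 and 44.6% ± 0.476 (SD, n = 3), a difference of 0.264 points. These shares rest on the annotation that the rule used and count the chosen regions in the hormone libraries, so they are a description. With the hormone-only regions left out, a DR3 was in 20.5%, 15.4% and 9.22% of the peaks inside genes with vehicle and in 20.4%, 16.8% and 17.1% with hormone. The low value was that of vehicle replicate 3, which has the longest list. Leaving the chosen regions out took peaks from the hormone lists only, since by the rule no vehicle peak lies in them. The remaining peaks are therefore not like sets, and the difference below and its p cannot settle an effect of hormone. The means were 15.04% ± 5.66 and 18.1% ± 2 (SD, n = 3), a difference of 3.03 points (two-sided exact permutation p = 0.5, where 3 against 3 cannot go below 0.1), and the groups overlapped. The difference rested on single vehicle libraries. It was -0.232 points without vehicle replicate 3 (exact permutation p = 0.9) and 5.69 points without vehicle replicate 1 (exact permutation p = 0.1, the smallest that 3 against 2 can give).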

How the data were processed

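The authors deposited 1 peak list per library, 3 vehicle and 3 1,25(OH)2D3, and an input library without a list entered no comparison. Bowtie, HOMER and build mm9 are named in the submitters' processing notes without versions. Per the file headers, peaks were called per library against input, at a false discovery rate of 0.001 and at least 4-fold more tags than the input and the surrounding 10 kb. The files hold deposited start and end positions in bases, all peaks of a library being of 1 width, and a deposited score of 1 for every peak, so list order was used in its place. Per-peak tag counts are not in these lists, so presence and absence were compared.

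Genes came from GENCODE mouse version 1 (Ensembl 65, NCBI build 37, which is mm9). A region is named by the shortest gene over its centre, while counts per gene credit every gene over it. Coordinates are 1-based. Shares carry 95% Wilson and differences 95% Newcombe intervals, and values per library were compared by exact permutation. Python 3.11.15, numpy 2.4.6, pandas 2.3.3 and scipy 1.17.1 were used, and the scripts were tested on simulated data. Depth was 15991198 to 68560701 tags.

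The regions, gene lists, motifs and tests were chosen with earlier results of these data known. The rule for named genes took the 10 regions highest in the lists, the 10 genes with the most regions, the 10 highest with a DR3 of 0 mismatches, up to 4 genes per list with the most regions, the 5 regions on each side of the 1 kb limit and the 5 highest in coding exons; other genes were added after their values were seen. Alternatives left out each library, equalised list lengths, and changed the overlap, distance from starts, DR3 settings, transcripts and replicate block. A few genes chosen by this rule are not reported here.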

Additional observations from a re-analysis of the deposited data

How the results depend on the processing

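The numbers of regions and of host genes changed with the libraries and list length, and leaving out a library raises them almost by construction. Leaving out 1 library gave 2262 to 3624 regions in 1763 to 2551 genes, and cutting each list to its first 8756 peaks gave 280 regions in 263 genes, of which 237 regions overlap the reported ones. The DR3 share was 18.1% to 22.3% without 1 library, 3.55% with 0 mismatches, 64.9% with at most 2 (where 34.0% of the 5 kb windows also match), 14.6% within 50 bp of the centre and 24.8% in a wider window. Its difference from regions of all 6 libraries inside genes stayed negative in each setting run, from -10.2 to -3.30 points without 1 library and -10.8 points with equal lists. The share in first introns was 51.4% with equal lists, 38.5% and 34.3% beyond 2 and 5 kb from starts, and 31.5% with the longest transcript of each gene. A region of all 6 libraries lay nearby for 40.2% to 54.2% without 1 library, 10.4% within 10 kb and 58.8% within 100 kb. The difference in the share of peaks inside genes ran from -0.00472 points (without 1,25(OH)2D3 replicate 3) to 0.665 without 1 library and turned to -1.68 points with equal lists, and that in the DR3 share of the remaining peaks ran from -0.232 (without vehicle replicate 3) to 5.69. The causes were not tested. Replicate numbers are shared between the groups, but nothing says that they pair the samples. With a replicate block the differences were again 0.264 and 3.03 points, and for the second exact sign-flip permutation gave p = 0.5, where the smallest possible is 0.25. Of the counts of genes with a region in each list, over the alternatives, 32 values moved and 176 did not. The starts of all transcripts and the removal of transcripts with introns over 500 kb were added after seeing the data and gave 1952 and 2005 regions. Vehicle lists of replicates 1 and 2 were shorter than hormone lists of like depth (8755 and 14887 peaks from 19733260 and 15991198 tags, against 25509 and 30390 from 17152461 and 17438643), and what depth contributes to absence was not tested.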
